A study of Homo sapiens with 6 samples.

Results

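The genes described here encode the nuclear-encoded subunits of the mitochondrial respiratory chain and ATP synthase and the factors that assemble them. They were picked by symbol, with no measured value in the rule, which was set with earlier results of these data known. Rows named for NDUF, SDH, UQCR, UQCC, COX, COA, SCO, ATP5 and ATPAF genes were taken, together with CYC1 and CYCS. The rule found 82 of the 10191 rows of the table, each symbol with 1 row that stands for 1 RefSeq transcript. Of these, 76 belonged to genes of the chain or its assembly (49 subunits, 25 assembly factors, the carrier cytochrome c and the inhibitor ATP5IF1), and 6 were pseudogenes or non-coding RNAs whose symbols match the rule. Total RNA of Huh7 cells, a long-established line from a human hepatocellular carcinoma, had been sequenced after transfer of a short hairpin RNA and puromycin selection. ABL1 encodes a tyrosine kinase of the cytoplasm and nucleus. The ABL1 knockdown group and the scrambled-hairpin group had 3 libraries each, taken 1 week after selection, and both groups share the line, the DMEM medium and the selection. No source used here gives the hairpin sequence, the number of hairpins or whether replicates were separate cultures, so all p-values rest on the spread among 3 libraries a group, which may be technical only.

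The respiratory chain sits in the inner mitochondrial membrane and passes electrons from NADH through complex I, or from succinate through complex II, to coenzyme Q, then through complex III and cytochrome c to complex IV, which reduces oxygen. Complexes I, III and IV pump protons, and complex V uses the proton gradient to make ATP. Most subunits are nuclear-encoded and are built into the complexes with the help of assembly factors that insert haem, copper, iron-sulfur clusters and flavin, and hepatocytes are rich in mitochondria.

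The libraries held 7952645, 6651413 and 7483809 reads in knockdown cells and 10487862, 7713451 and 9137608 reads in scrambled cells. The ABL1 transcript NM_007313 was measured at 13.7, 10.2 and 9.28 normalized counts in knockdown cells, against 73.4, 71.7 and 71.3 in scrambled cells (log2 change -2.62, adjusted p = 4.11e-06). The second, low ABL1 transcript, NM_005157, went the other way, at 17.6, 19.2 and 24.8 in knockdown cells and 9.17, 6.72 and 10.3 in scrambled cells (log2 change 1.15, adjusted p = 0.018). Most hepatocyte markers were abundant in both groups, AFP most of all, but FGB was too low to test and APOA1 and SERPINA1 had no row. The 8 with a row (4 fell and none rose) summed to 462883 to 511237 normalized counts in knockdown libraries and 550878 to 621357 in scrambled libraries. Fibroblast markers (5 measured of 6, of which 4 rose and 1 fell) summed to 12965 to 14302 in knockdown libraries and 8638 to 9569 in scrambled libraries. The collagen gene COL1A2 carried most of this fibroblast sum. Biliary markers (4 of 5, of which 2 fell and 1 rose) ran lower in knockdown libraries, at 5690.0 to 6159, against 8250.2 to 9483 in scrambled libraries. Endothelial markers (4 of 5, of which 3 fell and 1 rose) summed to 125 to 147 in knockdown libraries and 176 to 204 in scrambled libraries. Of the 5 immune markers, PTPRC, CD3E and CD14 had no row, LAPTM5 fell and LYZ rose, and the sum was 6526 to 7467 in knockdown libraries and 5679 to 6298 in scrambled libraries. The part of these shifts in the results that follow was not tested, and in bulk RNA fewer cells of a type and less RNA per cell cannot be told apart.

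More respiratory chain and assembly transcripts fell than rose in knockdown cells with the authors' scaling, though not with libraries scaled to equal totals. Falls were most frequent in complex III and among the subunits of complex IV. Over the whole table too, falls were more frequent among abundant transcripts. A normalized count is the number of reads recovered from the deposited signal, scaled between libraries with the authors' own factors. Of the 82 rows, 79 had a mean normalized count of at least 10 and were tested with limma. A log2 change is the mean of knockdown minus scrambled libraries on the log2(normalized count + 1) scale, and calls are at an adjusted p under 0.05 over all 8600 tested transcripts. Gene positions given in brackets are RefSeq spans on GRCh38.p14. By this rule 28 of the 79 fell (35.4%) and 13 rose (16.5%), while 38 did not pass. Over all 8600 tested transcripts 27.4% fell, 24.5% rose and 51.9% thus changed in either direction. The median log2 change was -0.11 for the 79 transcripts and 0.0018 over all tested. The groups did not overlap, with all 3 knockdown libraries below the scrambled ones, for 34 of the 79, against 30.7% of all tested, and with all 3 above for 12, against 28.2%. Changes were mostly small: 5 of the 79 were called with a difference of at least 2-fold (6.33%), against 16.9% of all tested, and these were COX7C, COX7B and NDUFAF4 on the lower side and NDUFA6 and ATP5MD on the higher side. NDUFAF1, NDUFB4 and ATP5MC3 had too few reads and were not tested.

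The balance of calls depended on how libraries were scaled. Knockdown libraries summed to 7517864 to 7779025 normalized counts and scrambled libraries to 8573339 to 8744039 under the authors' factors. Scaling every library to the same total moved the median of all tested transcripts up to 0.18, and 18 of the 79 then fell and 20 rose (52.6% of calls higher, against 31.7% with the authors' factors). For all tested transcripts the higher share of calls moved alike, with 63.8% under equal totals and 47.2% under the authors' factors. Measured from the median of all tested transcripts, the median of the 79 was -0.12 with the authors' factors and -0.12 with equal totals, which shifts all transcripts nearly alike, and -0.059 with quantile normalization. Among the 28 that fell, 18 passed in every one of the alternative fits that tested them, and among the 13 that rose 4 did so (NDUFV3, SDHAF2, COX7A2L and COX19).

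**Figure D1:**
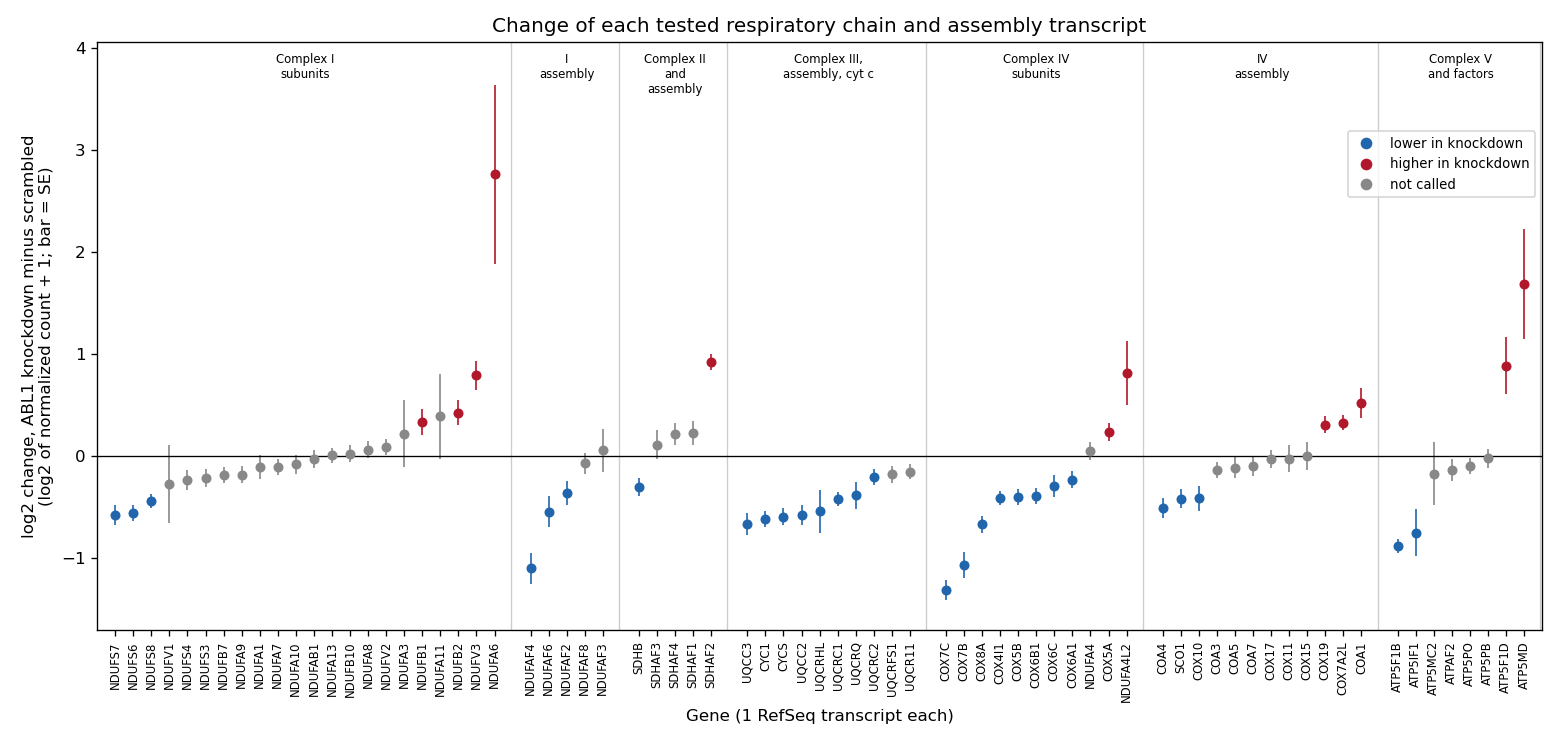
Log2 change, ABL1 knockdown minus scrambled, of each tested respiratory chain and assembly gene (y axis, log2 of normalized count + 1, bars are SE), grouped by complex; blue points fell, red points rose and grey points did not pass. All 9 complex III transcripts and CYCS lie below 0 on this scale (with equal totals UQCR11 is at 0.020), while complex I subunits spread around it and NDUFA6 stands highest with the widest bar.

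The share of transcripts called lower rose with abundance over the whole table, so the shares were set side by side within 4 equal classes of the tested transcripts by mean normalized count. In the highest class, which held 35 of the 79, 42.9% fell, against 40.2% of all tested in that class, and 8.57% rose, against 25.2%. In the next class (24 transcripts) 37.5% fell, against 32.3%, and 16.7% rose, against 26.2%. In both upper classes the share that fell was near that of the table, and the share that rose was below it. In the class below (12 transcripts) 33.3% fell, against 23.5%, and 33.3% rose, against 28.2%. In the lowest class (8 transcripts) none fell, against 13.5%, and 25.0% rose, against 18.3%. The rises in these lower classes were 4 and 2 transcripts, too few to set their shares apart from those of the table. The number of RefSeq transcripts of a gene went with its level too. The 50 rows of genes with 1 RefSeq transcript had a median level of 917 normalized counts, and 23 of them fell and 6 rose, where 31.1% and 25.2% of all tested transcripts of such genes did. The 15 rows of genes with 2 to 4 transcripts had a median level of 104, and of the 13 tested 3 fell and 4 rose, where 24.1% and 23.3% of all tested transcripts of such genes did. The 10 rows of genes with 5 or more had a median level of 281, and of the 9 tested 2 fell and 1 rose, where 21.0% and 23.6% did. How reads were divided between transcripts of a gene is not stated, so such a row is the value of 1 transcript and not of its gene.

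**Figure D2:**
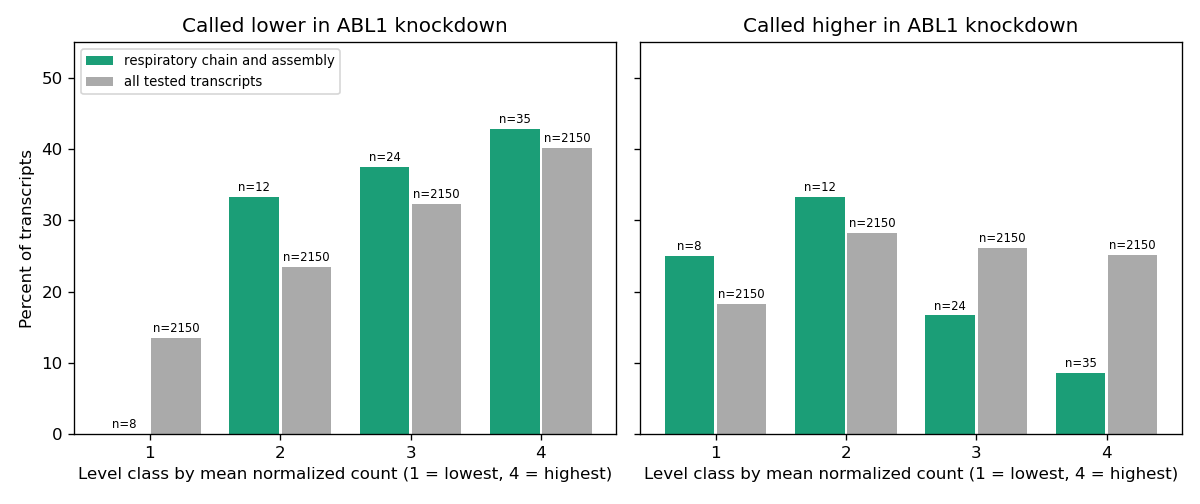
Percent of transcripts called lower (left panel) and higher (right panel) in ABL1 knockdown cells, by class of mean normalized count from lowest (1) to highest (4), for respiratory chain and assembly rows (green) and all tested transcripts (grey); n is the number of transcripts. In the highest class 42.9% of the 35 rows fell, against 40.2% of all, and 8.57% rose, against 25.2%.

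Promoters of these genes are known for binding sites of nuclear respiratory factor 1 (NRF1), of the ETS-family factor GABP (also called NRF2) and of YY1. RefSeq promoter windows of 250 bases before to 50 bases after the start (GRCh38.p14) were matched for 67 of the 76 genes and searched on both strands for a core of each motif, GCATGCGC for NRF1, CCGGAAG for ETS factors and AAGATGG for YY1. The windows shown are of genes that fell and carry 1 core within the bases shown (NDUFS7, COX8A, UQCRQ and COX7C) and of the genes with the clearest and the most uneven rise (SDHAF2 and NDUFA6). They end at the last base before the annotated start, read 5′ to 3′ on the gene's strand, and the cores, or their reverse complements, are in capitals.
NDUFS7 (chr19:1383807-1383906, plus strand): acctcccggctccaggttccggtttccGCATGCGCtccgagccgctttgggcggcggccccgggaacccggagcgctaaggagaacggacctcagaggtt
COX8A (chr11:63974520-63974619, plus strand): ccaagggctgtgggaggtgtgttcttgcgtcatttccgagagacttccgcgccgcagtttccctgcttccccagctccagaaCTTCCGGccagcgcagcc
UQCRQ (chr5:132866542-132866641, plus strand): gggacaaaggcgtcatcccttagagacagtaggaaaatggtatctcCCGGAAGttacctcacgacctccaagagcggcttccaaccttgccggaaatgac
COX7C (chr5:86617841-86617940, plus strand): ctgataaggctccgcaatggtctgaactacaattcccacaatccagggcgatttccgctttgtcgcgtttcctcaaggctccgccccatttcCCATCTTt
SDHAF2 (chr11:61430024-61430123, plus strand): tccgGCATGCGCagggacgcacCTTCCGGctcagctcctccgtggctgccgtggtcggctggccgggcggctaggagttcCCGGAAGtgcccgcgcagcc
NDUFA6 (chr22:42090773-42090942, minus strand): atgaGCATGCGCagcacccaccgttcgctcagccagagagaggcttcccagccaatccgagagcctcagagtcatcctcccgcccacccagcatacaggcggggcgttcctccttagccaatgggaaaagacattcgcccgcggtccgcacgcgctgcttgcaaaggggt

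NDUFS7 carries the NRF1 core, UQCRQ the ETS core, COX8A the ETS core in reverse and COX7C the YY1 core in reverse, next to its start. SDHAF2, which rose, carries an NRF1 core and an ETS core on each strand, and NDUFA6 carries an NRF1 core. NDUFA6 is shown over 170 bases and the other genes over 100. Its NRF1 core starts at position -166, outside a window of 100 bases. A YY1 core of NDUFA6 starts at position 26 after the start, beyond the bases shown. Any of the 3 cores was present in 41 of 67 promoters (61.2%), against 18.2% of all 27305 promoter windows and 27.3% of the 6491 of tested transcripts. Within the family, the cores stood in 18 of 22 promoters of genes that fell, 4 of 11 of genes that rose and 18 of 32 of genes that did not pass. Most of the genes without a matched window had fallen: UQCC3, UQCRHL, ATP5F1B, CYC1, COX6C and NDUFAF6. Over all tested transcripts the same cores stood in 25.2%, 28.3% and 27.9% of promoters of transcripts that fell, rose or did not pass, so there the share did not go with the call. By motif, the NRF1 core was found in 8 of 22 promoters of genes that fell, 2 of 11 that rose and 3 of 32 that did not pass (5.11% of tested transcripts and 3.27% of all promoters). The ETS core was found in 11 of 22, 3 of 11 and 9 of 32 (18.5% and 10.7%), and the YY1 core in 7 of 22, 1 of 11 and 7 of 32 (6.92% and 6.06%), in the same order. Longer forms of the 3 motifs did not all keep the difference between genes that fell and rose. The longer NRF1 palindrome stood in 0 of 22 promoters of genes that fell, 0 of 11 that rose and 2 of 32 that did not pass. Its share was 2.23% of tested transcripts and 1.36% of all promoters. In the same order, CCGGAAGT stood in 6 of 22, 3 of 11 and 5 of 32 (8.37% and 4.44%). A longer YY1 motif stood in 4 of 22, 0 of 11 and 3 of 32 (1.97% and 0.92%). No test was run on these shares, and a match to letters is not a measured binding site.

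**Figure D3:**
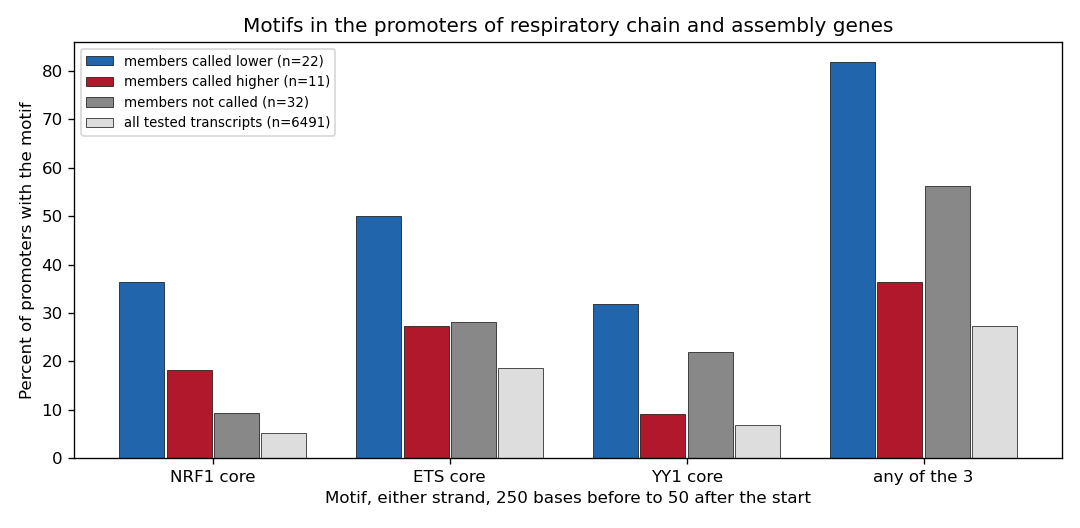
Percent of promoters (y axis) with each motif core on either strand, for respiratory chain and assembly genes that fell (blue), rose (red) or did not pass (dark grey) and for all tested transcripts (light grey). Any core was present in 81.8% of the 22 promoters of genes that fell, 36.4% of the 11 that rose and 56.3% of the 32 that did not pass, against 27.3% of all tested transcripts.

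Complex I, which takes electrons from NADH, showed few calls among its subunits. Of 22 tested subunits 3 fell (13.6%), 4 rose (18.2%) and 15 did not pass, where 27.4% and 24.5% of all tested transcripts fell and rose. The subunits had a median log2 change of -0.055, which was 0.12 with equal totals. With equal totals 3 fell (13.6%) and 7 rose (31.8%), where 19.6% and 34.6% of all tested transcripts did. The 3 that fell all belong to the arm that faces the matrix. NDUFS8, which holds iron-sulfur clusters on the electron path, was at 4029, 3740.0 and 3948 normalized counts in the knockdown libraries, against 5366, 4992 and 5576 in the scrambled libraries (log2 change -0.44, SE 0.07, adjusted p = 0.000219). NDUFS7, whose cluster hands electrons to coenzyme Q, was at 1231, 1109 and 1396 in knockdown cells and 2039, 1678 and 1844 in scrambled cells (log2 change -0.58, SE 0.10, adjusted p = 0.000372). Other annotated genes share 37.9% of the NDUFS7 exon bases. NDUFS6, a small accessory subunit, was at 733, 831 and 756 in knockdown cells and 1167, 1093 and 1155 in scrambled cells (log2 change -0.56, SE 0.08, adjusted p = 0.00011). The 2 groups did not overlap for any of these 3 transcripts. Of the 4 that rose, NDUFV3, an accessory subunit of the NADH-oxidizing end, had 170.2, 164 and 167 in knockdown cells and 103, 99.8 and 87.3 in scrambled cells (log2 change 0.79, SE 0.14, adjusted p = 0.000471), with no overlap. The membrane-arm subunits NDUFB2 and NDUFB1 rose less. NDUFB2 had 376, 461 and 411 in knockdown cells and 267, 344 and 322 in scrambled cells (log2 change 0.42, adjusted p = 0.0116), without overlap, and 29.6% of its exon bases are shared with NDUFB2-AS1 on the opposite strand. NDUFB1 had 283, 340.2 and 394 in knockdown cells and 263, 284 and 253 in scrambled cells (log2 change 0.33, adjusted p = 0.0449), the groups just overlapped, and the call was lost when any of 4 single libraries was left out. The 15 that did not pass ran in log2 change from -0.28 for NDUFV1, the subunit that binds NADH and flavin, to 0.39 for NDUFA11. Subunits of the same arm as NDUFS7 and NDUFS8 were among them: NDUFS3 was at -0.22 and NDUFV2 at 0.091. Another annotated gene shares 82.9% of the NDUFV2 exon bases.

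NDUFA6, an accessory subunit of complex I, had the largest fitted rise of the family, and it rested on 2 libraries. It had 796, 931 and 35.1 normalized counts in the knockdown libraries, against 45.9, 47.1 and 37.5 in the scrambled libraries (log2 change 2.76, SE 0.88, adjusted p = 0.0188). Knockdown replicates 1 and 2 stood far above the scrambled libraries, and replicate 3 was below all of them. The call was lost without knockdown replicate 1, without knockdown replicate 2, without scrambled replicate 3, and in limma with voom weights. SMDT1, a regulator of the mitochondrial calcium uniporter, lies on the plus strand of chromosome 22 at 42079700 to 42084284 and ends 1241 bases short of the 3′ end of NDUFA6, which lies on the minus strand at 42085526 to 42090772 (GRCh38.p14). SMDT1 was likewise uneven, at 433, 179 and 24.8 normalized counts in the knockdown libraries, against 25.0, 20.2 and 18.8 in the scrambled libraries (log2 change 2.51, adjusted p = 0.0102). The other measured transcripts within 10000 bases did not show the split. NDUFA6-DT, which starts beside the promoter of NDUFA6 on the other strand, had 27.4, 28.3 and 32.0 in knockdown cells and 25.8, 17.9 and 22.5 in scrambled cells and did not pass. PHETA2, a gene of endosomal traffic, did not pass either (log2 change 0.018). Among the 8600 tested transcripts, 3 had knockdown replicates 1 and 2 each at least 10-fold above replicate 3 on normalized count + 1, and NDUFA6 was one of them. Nothing in the labels tells the 3 knockdown libraries apart, and what sets replicate 3 apart at this locus was not tested.

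**Figure D4:**
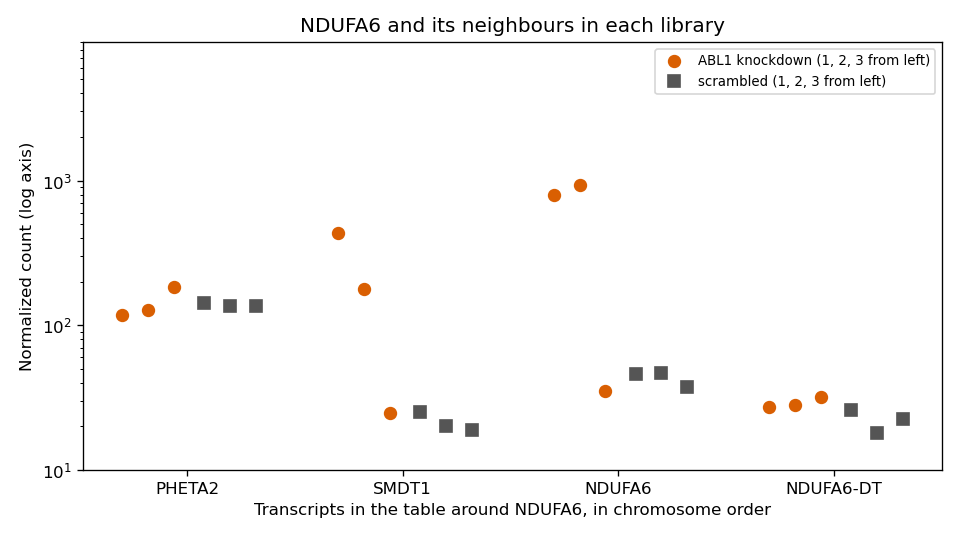
Normalized counts (y axis, log scale) of NDUFA6 and the measured transcripts around it in chromosome order (x axis), with knockdown libraries as circles left of scrambled libraries as squares, replicates 1 to 3 from left. NDUFA6 and SMDT1 are high in knockdown replicates 1 and 2 and near the scrambled level in replicate 3, while PHETA2 and NDUFA6-DT show no such gap.

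Of 5 tested complex I assembly factors 3 fell and none rose, where 27.4% and 24.5% of all tested transcripts did. NDUFAF4, which acts early in building the matrix arm (chromosome 6, 96889315 to 96897891), had 91.9, 111 and 103 normalized counts in the knockdown libraries, against 191, 259 and 212 in the scrambled libraries (log2 change -1.10, SE 0.15, adjusted p = 6.52e-05), so that each knockdown library had less than any scrambled one. NDUFAF6 fell by 0.55 on the log2 scale (adjusted p = 0.0089) and NDUFAF2 by 0.36 (adjusted p = 0.0228). Both calls were lost with equal totals, and that of NDUFAF2 also without knockdown replicate 1 or scrambled replicate 3. NDUFAF3 (log2 change 0.053) and NDUFAF8 (-0.074) did not pass.

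Complex II was represented by 1 subunit, SDHB, and by 4 assembly factors, and these went different ways. SDHB, the iron-sulfur subunit, had 663, 643 and 657 normalized counts in the knockdown libraries, against 749.5, 818 and 861 in the scrambled libraries (log2 change -0.30, SE 0.09, adjusted p = 0.00966). Its groups did not overlap, but the call was lost with equal totals, with quantile normalization and without scrambled replicate 3. SDHAF2, which is needed to attach flavin to the catalytic subunit SDHA (chromosome 11, 61430124 to 61446733), rose and had 1616, 1652 and 1557 normalized counts in the knockdown libraries, against 820.4, 883 and 844 in the scrambled libraries (log2 change 0.92, SE 0.08, adjusted p = 7.53e-07). Each knockdown library had well above the level of any scrambled library, SDHAF2 had the smallest p of the family among transcripts that rose, and the call was kept in all 18 alternatives. A share of 36.2% of the SDHAF2 exon bases is shared with another annotated gene, and reads from the 2 cannot be told apart here. The iron-sulfur factors SDHAF1 and SDHAF3 and the flavin-linked factor SDHAF4 did not pass, at log2 changes of 0.23, 0.11 and 0.22. SDHAF1 and SDHAF4 passed as higher with equal totals.

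The measured transcripts of complex III, which passes electrons from coenzyme Q to cytochrome c, were lower throughout on the authors' scale. UQCRB, UQCRH and UQCR10 had no row, so the complex was measured in part only. In all 9 transcripts each knockdown library was below every scrambled library, and 7 of the 9 fell (5 of 7 subunits and both assembly factors), with a median log2 change of -0.42. Of all tested transcripts 30.7% had such a gap and 27.4% fell. In the highest of the 4 abundance classes, which holds CYC1, UQCRC1 and UQCRC2, 40.2% of all tested fell. With equal totals 4 of the 9 fell and none rose, where 19.6% and 34.6% of all tested transcripts did. With quantile normalization or median-of-ratios scaling 6 fell and none rose. CYC1, the cytochrome c1 haem subunit, had 4089, 3606 and 3875 normalized counts in the knockdown libraries, against 6398, 5463 and 5865 in the scrambled libraries (log2 change -0.61, SE 0.08, adjusted p = 3.66e-05). UQCRC1, a core subunit (chromosome 3, 48599002 to 48609646), had 5297, 4963 and 4996 normalized counts in the knockdown libraries, against 6782, 7153 and 6465 in the scrambled libraries (log2 change -0.42, SE 0.07, adjusted p = 0.000287). These were also the most abundant transcripts of complex III. The small subunit UQCRQ had 218, 234 and 201 in knockdown cells and 238, 310.5 and 309.6 in scrambled cells (log2 change -0.38, adjusted p = 0.0279), so that the highest knockdown library lay just below the lowest scrambled one. GDF9, on the opposite strand, shares 18.2% of the UQCRQ exon bases. UQCRHL, an intronless copy of the hinge subunit gene UQCRH whose reads may be shared with it, had 40.1, 55.4 and 48.5 in knockdown cells and 74.2, 76.2 and 60.0 in scrambled cells (log2 change -0.54, adjusted p = 0.0433). The second core subunit, UQCRC2, fell by 0.20 (adjusted p = 0.0466). The calls of UQCRQ, UQCRHL and UQCRC2 were each lost with equal totals and in 4 or more of the fits that left out 1 library. UQCRFS1, the Rieske iron-sulfur subunit, and UQCR11 did not pass, at -0.18 and -0.15, and with equal totals UQCR11 stood at 0.020.

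The assembly factors of complex III act on cytochrome b, its mitochondrially encoded subunit. UQCC3 had 409, 367 and 449.8 normalized counts in the knockdown libraries, against 717, 597 and 635 in the scrambled libraries (log2 change -0.67, SE 0.11, adjusted p = 0.000208), and UQCC2 had 395, 367 and 409 in knockdown cells and 551, 635 and 569.5 in scrambled cells (log2 change -0.58, SE 0.10, adjusted p = 0.000287). For both, all knockdown libraries were below all scrambled ones, and both calls were kept in all 18 alternatives. CYCS, the soluble carrier between complexes III and IV (chromosome 7, 25118656 to 25125260), had 1391, 1663 and 1596 normalized counts in the knockdown libraries, against 2192, 2441 and 2378 in the scrambled libraries (log2 change -0.59, SE 0.08, adjusted p = 8.39e-05), without overlap and again called in all 18. The annotation names 40 pseudogenes of CYCS, and the sources used here do not give how reads matching several places were counted.

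Complex IV, cytochrome c oxidase, had the strongest falls among its small subunits. Of 11 tested subunits 8 fell (72.7%), 2 rose (18.2%) and 1 did not pass, with a median log2 change of -0.39. The 2 that rose were COX5A and NDUFA4L2, a paralogue of NDUFA4 counted here with the subunits. Both of these calls were lost in several of the fits that left out 1 library. Of all tested transcripts 27.4% fell and 24.5% rose. In the highest of the 4 abundance classes, which holds most of these subunits, 40.2% of all tested fell and 25.2% rose. With equal totals 6 fell (54.5%) and 2 rose (18.2%), where 19.6% and 34.6% of all tested transcripts did. COX7C, a small membrane-spanning subunit (chromosome 5, 86617941 to 86620962), had the largest fall of the family, with 1514, 1697 and 1451 normalized counts in the knockdown libraries, against 3443, 4358 and 3817 in the scrambled libraries (log2 change -1.31, SE 0.09, adjusted p = 2.58e-07). COX7B, another small membrane-spanning subunit (chromosome X, 77899468 to 77907376), had 216, 264 and 219.7 normalized counts in the knockdown libraries, against 429, 557 and 488 in the scrambled libraries (log2 change -1.07, SE 0.12, adjusted p = 1.56e-05). Knockdown levels of both were thus under those of every scrambled library, by a ratio of means of 0.401 and 0.475. COX8A had 1972, 1686 and 1756 in knockdown cells and 3027, 2873 and 2701 in scrambled cells (log2 change -0.67, SE 0.08, adjusted p = 2.1e-05), and 34.5% of its exon bases are shared with another annotated gene. COX4I1, the widely expressed isoform of the regulatory subunit IV, had 4375, 4425 and 4189.6 in knockdown cells and 5707, 5977 and 5596 in scrambled cells (log2 change -0.41, SE 0.07, adjusted p = 0.000236). COX5B and COX6B1, peripheral subunits on the matrix and intermembrane sides, fell by 0.40 and 0.39 on the log2 scale (adjusted p = 0.00101 and 0.00103). All 6 of these calls were kept in every alternative.

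The remaining subunits of complex IV changed less. COX6C fell by 0.29 (adjusted p = 0.0384), and the annotation names 17 pseudogenes of it. COX6A1, the isoform of subunit VIa found in liver, had 2835, 2582 and 2495 normalized counts in the knockdown libraries, against 3267, 3241 and 2788 in the scrambled libraries (log2 change -0.23, adjusted p = 0.0339). Another annotated gene shares 30.6% of the COX6A1 exon bases. The COX6A1 groups overlapped. Its call was lost with equal totals, median-of-ratios scaling, quantile normalization and in 4 of the fits that left out 1 library, and that of COX6C with equal totals, quantile normalization and in 3 such fits. COX5A, a matrix-side subunit, rose, with 1676, 1977 and 1805 in knockdown cells and 1435, 1687 and 1521 in scrambled cells (log2 change 0.23, adjusted p = 0.0401), but the groups overlapped and leaving out any of 4 single libraries ended the call. NDUFA4, a subunit first assigned to complex I, had 2017, 1981 and 1924 in knockdown cells and 1691, 2159 and 1902 in scrambled cells and did not pass (log2 change 0.049). Its low-abundance paralogue NDUFA4L2 had 26.4, 22.6 and 42.3 in knockdown cells and 16.7, 14.6 and 17.8 in scrambled cells (log2 change 0.81, adjusted p = 0.0472), a call lost with no filter, with quantile normalization, with voom weights and in 5 of the 6 fits that left out a library. Per kilobase of transcript, COX4I1 was the highest subunit of complex IV in both groups, at 6116 normalized counts per kilobase in knockdown cells and 8135 in scrambled cells. COX7C stood at 2333 per kilobase in knockdown cells, under COX6A1 (4610.0), COX8A (3559.6) and COX6B1 (3251). In scrambled cells COX7C stood at 5815 per kilobase, above COX6A1 (5417), COX8A (5655) and COX6B1 (4273).

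**Figure D5:**
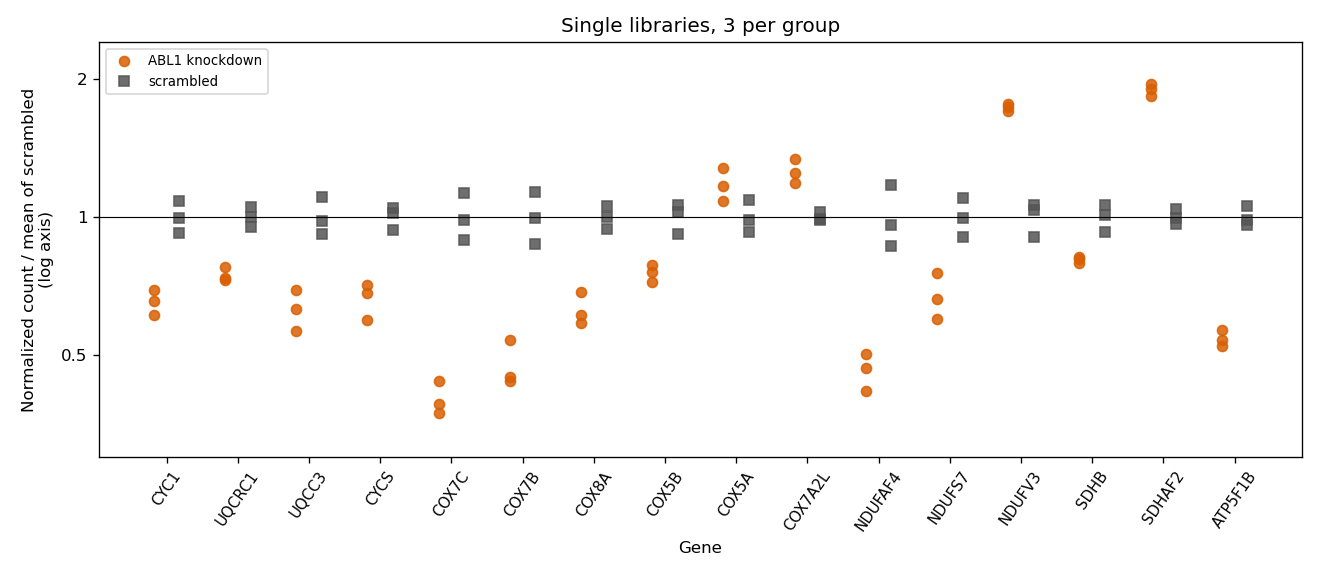
Normalized count of each library divided by the mean of the 3 scrambled libraries (y axis, log scale) for 16 genes, with knockdown libraries as circles left of scrambled libraries as squares. For COX7C and COX7B the knockdown circles lie around and below 0.5, for CYC1, UQCC3, CYCS and ATP5F1B they lie below all squares, and for SDHAF2, NDUFV3 and COX7A2L they lie above all squares.

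Of 12 assembly factors of complex IV 3 were lower, 3 higher and 6 did not pass. These shares of 25.0% each way are near those of all tested transcripts (27.4% lower and 24.5% higher). COX7A2L, which joins complexes III and IV into supercomplexes, rose, with 2323, 2491 and 2207 normalized counts in the knockdown libraries, against 1848, 1838 and 1911 in the scrambled libraries (log2 change 0.33, SE 0.07, adjusted p = 0.00252). COX19, a small protein of the intermembrane space linked to copper delivery, had 740.5, 715 and 739 in knockdown cells and 599, 560.4 and 615 in scrambled cells (log2 change 0.31, SE 0.08, adjusted p = 0.00809). COA1 was measured through a non-coding transcript and had 122, 141 and 143 in knockdown cells and 90.9, 95.3 and 96.6 in scrambled cells (log2 change 0.52, adjusted p = 0.0103). For these 3, all knockdown libraries lay above all scrambled ones. On the lower side COA4, another small intermembrane-space factor, had 642, 567 and 514 in knockdown cells and 838, 843 and 762 in scrambled cells (log2 change -0.51, SE 0.10, adjusted p = 0.000918). SCO1, which delivers copper to the catalytic core, and COX10, which makes the precursor of haem a, fell by 0.42 and 0.42 on the log2 scale (adjusted p = 0.0022 and 0.0109), the call of COX10 being lost with equal totals. The others, COX15, which completes haem a, the copper factors COX11 and COX17, and COA3, COA5 and COA7, did not pass, the lowest being COA3 at a log2 change of -0.14.

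Complex V, the ATP synthase, had 1 of 6 tested subunits lower (16.7%) and 2 higher (33.3%), where 27.4% and 24.5% of all tested transcripts were. Several subunits of the complex, among them ATP5F1A and ATP5F1C, had no row. The change with the smallest p was in ATP5F1B. ATP5F1B, the catalytic beta subunit and the most abundant transcript of the family (chromosome 12, 56638175 to 56645984), had 9371, 8884 and 8631 normalized counts in the knockdown libraries, against 16223, 17449.7 and 15858 in the scrambled libraries (log2 change -0.88, SE 0.07, adjusted p = 6.67e-07). The groups were far apart, and the call was kept in all 18 alternatives. ATP5F1D, the delta subunit of the central stalk, had 90.0, 109.6 and 214 in knockdown cells and 56.7, 67.2 and 86.3 in scrambled cells (log2 change 0.88, adjusted p = 0.0178). Knockdown replicate 3 was the highest there, and the call was lost without it or without scrambled replicate 1. ATP5MD, a small membrane subunit also called DAPIT, had 7.83, 22.6 and 21.7 in knockdown cells and 4.17, 2.24 and 7.51 in scrambled cells (log2 change 1.68, adjusted p = 0.0194), a call lost without knockdown replicate 2 or 3 or scrambled replicate 2. Both rows had few reads, and ATP5MD was measured through 1 of 3 RefSeq transcripts. Of the genes of the c-ring subunit, ATP5MC2 had 24.5, 15.8 and 21.7 in knockdown cells and 20.8, 20.2 and 29.1 in scrambled cells and did not pass, and ATP5MC3 had 6.85, 2.26 and 3.09 in knockdown cells and 7.50, 4.48 and 2.81 in scrambled cells and was not tested. The stator subunits ATP5PB and ATP5PO did not pass (log2 changes -0.024 and -0.10). ATP5IF1, the inhibitor that holds back ATP hydrolysis when the gradient falls, had 47.9, 78.0 and 60.9 in knockdown cells and 76.7, 119.9 and 120.1 in scrambled cells (log2 change -0.75, adjusted p = 0.0158). One knockdown library exceeded the lowest scrambled library for ATP5IF1, and the call was lost with equal totals and without knockdown replicate 1 or scrambled replicate 2 or 3. The assembly factor ATPAF2 did not pass (log2 change -0.14).

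Summed over 75 of the 76 genes, leaving out the uneven NDUFA6, the family took 82799 ± 1592 normalized counts in knockdown cells and 105020.3 ± 2772 in scrambled cells (SD, n = 3 each), a ratio of 0.788. The complex I sum was 22851 ± 159 normalized counts in knockdown cells and 25686 ± 81.4 in scrambled cells (SD, n = 3 each), a ratio of 0.890. Complexes III and IV were further apart than complex I. The complex III sum was 15627 ± 640.4 normalized counts in knockdown cells and 20663 ± 501 in scrambled cells (SD, n = 3 each), a ratio of 0.756. The complex IV sum was 26578 ± 954 normalized counts in knockdown cells and 33179 ± 1541 in scrambled cells (SD, n = 3 each), a ratio of 0.801. All of these sums were lower in each knockdown library than in any scrambled one, but they weigh abundant transcripts most. Every sum given here covers only the genes with a row, not the whole complex. The complex V sum was 12853 ± 407 normalized counts in knockdown cells and 20554 ± 1017 in scrambled cells (SD, n = 3 each), a ratio of 0.625, and ATP5F1B alone made up 8962 of it in knockdown cells and 16510.2 in scrambled cells. The complex II sum, most of it SDHAF2 and SDHB, of which SDHAF2 rose and SDHB fell, was 3341 ± 68.1 normalized counts in knockdown cells and 2601 ± 23.4 in scrambled cells (SD, n = 3 each), a ratio of 1.28. The mean total of normalized counts of all rows had itself a ratio of 0.887, a value close to the ratio of the complex I sum.

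The 6 non-coding rows had 1 call. SDHAP3, a pseudogene of SDHA, had 57.7, 63.3 and 61.9 in knockdown cells and 24.2, 42.6 and 37.5 in scrambled cells (log2 change 0.83, adjusted p = 0.0128), a call lost without scrambled replicate 1, and reads from near-identical copies may be shared. SDHAP1 and SDHAP2 (log2 change 0.14 each), COX10-AS1 (-0.23), NDUFB2-AS1 (0.44) and NDUFA6-DT (0.40) did not pass.

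Genes that work with the chain but lie outside the symbol rule were counted from lists of known members. The counts stand beside 27.4% of all tested transcripts that fell and 24.5% that rose, and the lists are short. Many listed genes were not tested. Tested were 15 of 32 assembly and carrier genes, 10 of 13 for coenzyme Q synthesis and 8 of 21 for mitochondrial DNA expression. Of the citric acid cycle list 10 of 18 genes were tested, and of the regulators of mitochondrial biogenesis 6 of 16. Of 15 tested assembly and carrier genes 6 fell and 1 rose (median log2 change -0.13). SLC25A5, which exchanges ADP and ATP across the inner membrane, fell by 0.87 (adjusted p = 1.61e-06). OXA1L, the inner membrane insertase, fell by 0.32 (adjusted p = 0.00292), and TACO1, the translational activator of the mitochondrial COX1 message, rose by 0.61 (adjusted p = 0.000176). Of 10 tested coenzyme Q synthesis genes 4 fell and 2 rose (median -0.26). COQ8A, an atypical kinase of the pathway, had 1896, 1577 and 1766 in knockdown cells and 4384, 3888 and 3969.7 in scrambled cells (log2 change -1.23, adjusted p = 1.96e-07), with a wide gap between the groups. The methyltransferase COQ3 fell by 0.71 (adjusted p = 0.000597), and the prenyltransferase COQ2 rose by 0.55 (adjusted p = 0.00378). Of 8 tested genes of mitochondrial DNA expression 5 fell and none rose (median -0.38). Among them were the elongation factor TUFM (fell by 0.49, adjusted p = 9.43e-05), the polymerase subunit POLG2 (fell by 0.62, adjusted p = 0.00104) and the RNA phosphorylase PNPT1 (fell by 0.52, adjusted p = 0.00148).

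The citric acid cycle, which feeds the chain with NADH and succinate, had few calls. Of 11 tested rows from 10 genes 2 fell and 1 rose (median 0.089), where 27.4% and 24.5% of all tested transcripts did. The list also holds DLAT, which gave the 1 rise, and PC, and both act on pyruvate outside the cycle itself. DLAT, a subunit of pyruvate dehydrogenase, had 7457, 7690.3 and 7919 in knockdown cells and 3640.1, 3672 and 3849 in scrambled cells (log2 change 1.05, adjusted p = 9.51e-08), and the isocitrate dehydrogenase subunit IDH3A fell by 0.27 (adjusted p = 0.0218). The IDH3B transcript NM_006899 fell by 0.53 (adjusted p = 0.0316). Of 6 tested regulators of mitochondrial biogenesis 1 fell and 2 rose, beside the same shares of all tested transcripts. PPARGC1A, the coactivator PGC-1alpha, which is known to raise expression of respiratory chain genes, had 306, 252 and 225 in knockdown cells and 109, 150.2 and 128 in scrambled cells (log2 change 1.01, SE 0.16, adjusted p = 0.000166), higher in every knockdown library. NRIP1, a corepressor of such genes, rose by 0.48 (adjusted p = 0.00035), and the AMP-kinase subunit PRKAA2 fell by 0.43 (adjusted p = 0.00515). The 1 NRF1 transcript of the table had 7.83, 19.2 and 13.4 in knockdown cells and 1.67, 0 and 0.938 in scrambled cells, under the filter of 10, and was not tested. ESRRA, an orphan nuclear receptor, was at 5.87, 9.04 and 11.3 in knockdown cells and 24.2, 8.97 and 10.3 in scrambled cells and did not pass. The rows of DLAT, PPARGC1A, NRF1 and ESRRA each stand for 1 transcript, of 14, 15, 4 and 3 RefSeq transcripts of the gene. Neither GABPA nor TFAM was among the listed genes with a row, so no value is given for them.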

How the data were processed

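The deposited table holds 1 signal value per RefSeq transcript and library, computed by the authors. The submitters' processing notes name HISAT2 2.0.4, HTSeq 0.6.1 and build hg38, per the labels, without a role. Strand setting, annotation and row filter: not given in the sources used here. By its values, the deposited signal squared equals a step per library times reads plus 0.375, and whole reads came back within 0.05 for 100% of rows. Normalized counts are reads times the library's relative step. Rows with a mean of at least 10 were tested with limma 3.58.1 (lmFit, eBayes with trend; R 4.3.3) on log2(normalized count + 1). Tests were two-sided with Benjamini-Hochberg adjustment over 8600 transcripts and a threshold of 0.05, after tests on simulated data. A count model was not fitted to the recovered reads. Library values are given for up to 4 transcripts with the smallest p in each direction of each group, for isoform families and for uneven transcripts; other members were named after their values were seen. Members, motifs and lists were chosen with earlier results of these data known. Of 80 rows with a GENCODE 29 model, 30 shared exon bases with another gene, 22 of them at least 10% of their bases. The share was not given for every such row. Groups came from sample titles. Correlations of log2 values between libraries were 0.984 to 0.988 within groups, and no 2 libraries agreed within sampling noise. Alternatives covered filter, pseudocount, scale, normalization, weights, threshold, replicate block and left-out libraries.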

Additional observations from a re-analysis of the deposited data

How the results depend on the processing

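Across 18 alternative fits the 28 falls moved most with scaling and the 13 rises most with the threshold. Equal totals gave 18 falls, 20 rises and a median log2 change of 0.060, and quantile normalization a median of -0.024, against -0.11. A minimum mean of 50 gave a median of -0.15, and a threshold of 0.01 left 4 rises. Leaving out 1 library gave 22 to 27 falls, 8 to 11 rises (8 without knockdown replicate 3) and a median of -0.14 to -0.11, with 2069 to 2202 falls and 1852 to 1944 rises over all tested transcripts. On the deposited square-root scale the median has another unit and was not computed. No member changed direction as a called value. With reads summed per gene, ABL1 NM_005157 takes the value of both its transcripts and reverses to -1.33. Replicate numbers in the titles were not used as pairs in the main fit, and whether they mark pairs is not known. Correlations of deviations between libraries of the same number were 0.047, 0.077 and 0.077, and those of unlike number ran from -0.15 to 0.089. Not every library correlated best with its own number. A replicate block gave 30 falls, 14 rises and a median of -0.11, with 2520 falls and 2301 rises over all tested transcripts. Depth limits the rows under about 100 normalized counts, and overlap of exons, pseudogenes and unstated strand limit single genes.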
